A study of Homo sapiens with 4 samples.

Results

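The RNAs described here are short, folded, non-coding RNAs that work as the core of ribonucleoprotein particles. They comprise the RNA of the signal recognition particle (RN7SL genes), copies of the 7SK RNA (RN7SK), the RNA of RNase MRP (RMRP), Y RNAs (RNY1, RNY3, RNY4), vault RNAs (VTRNA), the telomerase RNA (TERC) and 5S ribosomal RNA (RNA5S). Members were taken by gene symbol, pseudogene copies included, which gave 71 of the 21372 genes in the deposited table. Of these, 26 were reference genes and 45 were pseudogene copies. By class there were 25 RN7SL genes, 17 RN7SK copies, 21 RNA5S genes, 2 vault RNAs, 2 Y3 genes, and 1 gene each for RMRP, Y1, Y4 and TERC. The main 7SK gene RN7SK and the genes RN7SL2, RPPH1, RNY5 and VTRNA1-1 had no row in the table and were not analysed here.

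RNA immunoprecipitation sequencing (RIP-seq) recovers the RNA attached to a protein with an antibody and sequences it beside the starting RNA. The P5CS IP group held 2 libraries of RNA recovered with P5CS (encoded by ALDH18A1), a mitochondrial enzyme that makes the precursor of proline, and the input group held 2 libraries labelled input, taken here as the starting RNA, although the series design names an IgG antibody instead. Both came from NCI-H1299, a single established human lung tumour line labelled lung adenocarcinoma, with no treatment named for either. The comparison asks which of these RNAs made up more or less of the P5CS IP than of the input.

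The RNA of the signal recognition particle holds together the complex that brings ribosomes making secreted and membrane proteins to the endoplasmic reticulum, and 5S rRNA is part of the large ribosomal subunit. RNase MRP cuts precursor ribosomal RNA, 7SK holds the elongation kinase P-TEFb in an inactive complex in the nucleus, and Y RNAs bind the proteins Ro60 and La. Vault RNAs are part of the large vault particle of the cytoplasm, and TERC is the template of telomerase. All but TERC are transcribed by RNA polymerase III, and the genome carries many near-identical copies of the RN7SL, 7SK, Y and 5S genes, so reads of one copy may be counted in the row of another.

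Library totals were 34730866 and 31489455 counts in the P5CS IP libraries and 40911717 and 46339235 counts in the input libraries. Levels below are in CPM, the count of a gene scaled to a common total, over library sizes scaled by TMM factors, unless FPKM is named. A floor of 3 counts was worth 0.0864 and 0.0953 CPM (of the unscaled total) in the P5CS IP libraries, against 0.0733 and 0.0647 CPM in the inputs. With 2 libraries against 2 an exact permutation test cannot give a two-sided p below 0.333, so adjusted p-values come from the edgeR fit over all 17304 genes that passed a filter on low counts. No label says that replicates came from separate cultures, so these p-values measure only the spread between the libraries, which may be technical. Among the markers of the line, KRT18 stood at 269.6 and 267.3 CPM in the P5CS IP libraries and 513.4 and 533.6 CPM in the inputs. The epithelial marker EPCAM was at 0 in both P5CS IP libraries and at 0.213 and 0.143 CPM in the inputs, the lung marker NKX2-1 did not exceed 1.51 CPM, and the blood marker PTPRC did not exceed 0.191 CPM.

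Together the 71 members took 2.90% and 2.38% of the counts in the P5CS IP libraries, against 24.8% and 26.04% in the inputs (2.64% ± 0.368 against 25.4% ± 0.853, SD, n = 2 each). Of the 42 members that passed the count filter, 22 were lower in the P5CS IP at an adjusted p under 0.05, 0 were higher and 20 were not called (edgeR's quasi-likelihood test, Benjamini-Hochberg). DESeq2 also called 0 of these members higher, and at an unadjusted p under 0.05 edgeR gave 0 as well. Among all 17304 genes tested, 25.6% were called lower and 25.4% higher, and the median log2 fold change of P5CS IP over input was -0.01 with quartiles at -0.78 and 0.79. Scaled to total counts without TMM factors, 3223 genes were called lower and 5604 higher, where the TMM fit gave 4432 and 4400. The called members were all in the RN7SL, RN7SK, RMRP, Y1, Y3 and vault classes, and none of the 15 tested 5S genes was called. The other 29 members had too few counts for the test. Over all 71 members, both P5CS IP libraries lay below both inputs for 36 members, where the share of all genes was 34.6%, and above both inputs for 9, where the share of all genes was 33.7%.

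**Figure D1:**
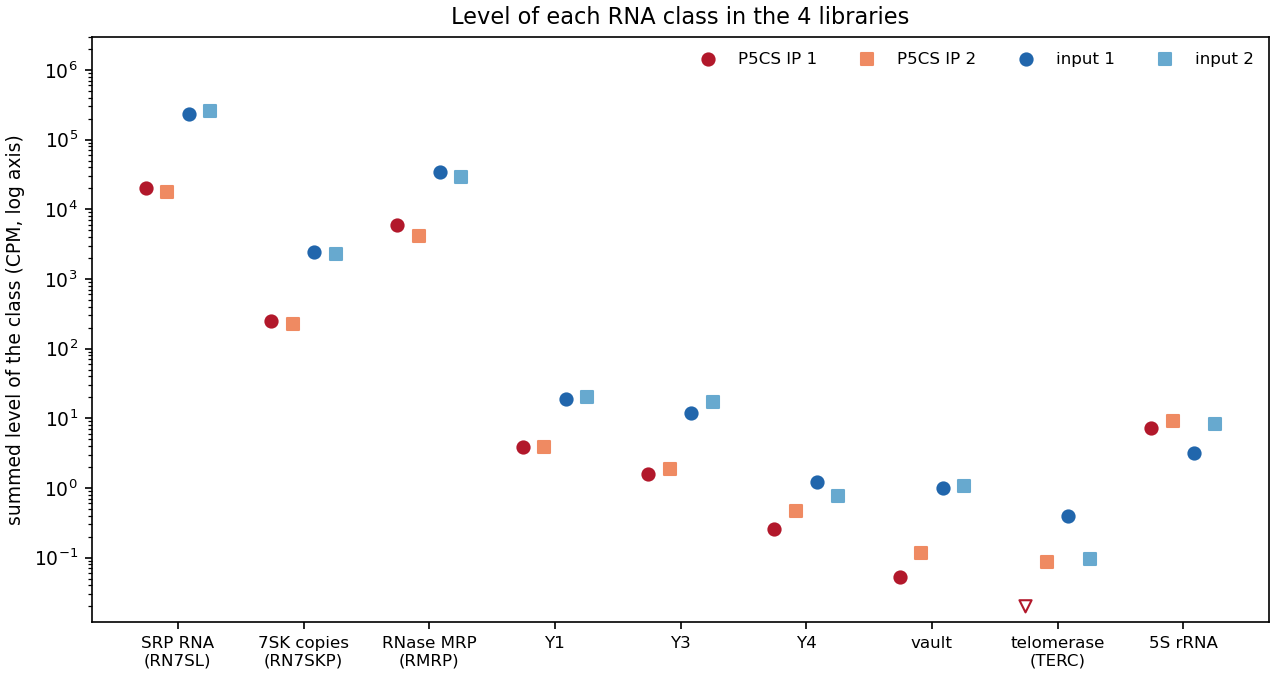
Summed level of each class in CPM on a log axis, with 1 point per library (P5CS IP in red and orange, input in blue). The open triangle marks P5CS IP 1, which had 0 TERC counts and is drawn at the foot of the axis. Every class except 5S rRNA had both P5CS IP libraries below both inputs.

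The signal recognition particle RNA was the most abundant of the classes and was lower in the P5CS IP. The 25 RN7SL rows together took 2.22% and 1.90% of the counts in the P5CS IP libraries, against 21.4% and 23.2% in the inputs. The summed level was 13.0-fold lower in the P5CS IP, a log2 ratio of -3.70, and the 4 pairings of a P5CS IP with an input library gave -3.88 to -3.53. The groups did not overlap, and the gap was far wider than the spread between the libraries of either group. Of the 14 tested RN7SL rows, 10 were called lower and 4 were not called, where 25.6% of all tested genes were called lower. The median log2 fold change of the 14 rows was -3.20.

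RN7SL1, a functional gene of the particle's RNA (chr14:49586580-49586878, hg38), had a mean of 15435 ± 1900 CPM over the P5CS IP libraries, against 213832 ± 18968 CPM over the inputs (SD, n = 2 each). The log2 fold change of RN7SL1 was -3.79 (SE 0.0897, adjusted p = 2.18e-09, edgeR). Per length, RN7SL1 had the highest level of any gene in all 4 libraries, at 61797 and 51366 FPKM in the P5CS IP libraries against 615754 and 686883 FPKM in the inputs. It was thus the leading RNA per length in the P5CS IP as well, at a lower level than in the input. By count it ranked 2 in both P5CS IP libraries and 1 in both inputs.

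RN7SL3, a further annotated gene of the same RNA, had 642.9 and 513.4 CPM in the P5CS IP libraries, against 7840 and 8105 CPM in the inputs. Its log2 fold change was -3.79 (SE 0.104, adjusted p = 3.07e-09, edgeR), equal to that of RN7SL1 to 2 decimals. The copy RN7SL4P had 1938 and 1666 CPM in the P5CS IP libraries, against 15524 and 11501 CPM in the inputs, and its log2 fold change was -2.91 (SE 0.129). The copy RN7SL5P had 832.9 and 1185 CPM in the P5CS IP libraries, against 9328 and 9705 CPM in the inputs, and its log2 fold change was -3.24 (SE 0.137). The make-up of the class also differed between the groups. RN7SL1 held 83.1% and 80.7% of the RN7SL counts in the P5CS IP libraries, against 86.0% and 88.6% in the inputs. RN7SL4P held 9.59% and 9.54% of them in the P5CS IP libraries, against 6.66% and 4.48% in the inputs. The share of RN7SL3 was 3.18% and 2.94% in the P5CS IP libraries, against 3.36% and 3.16% in the inputs, and that of RN7SL5P was 4.12% and 6.79%, against 4.001% and 3.78%. Reads of these near-identical rows cannot be told apart with certainty, and the sources used here do not give how reads with several positions were assigned.

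Among the less abundant RN7SL copies, RN7SL767P, RN7SL674P, RN7SL396P and RN7SL128P were called lower with log2 fold changes of -3.30 (SE 0.513), -4.05 (SE 0.610), -3.08 (SE 0.558) and -4.77 (SE 0.680). RN7SL767P had 26 and 10 counts in the P5CS IP libraries, against 228 and 154 in the inputs. RN7SL674P had 4 and 14 counts in the P5CS IP libraries, against 132 and 206 in the inputs, and RN7SL396P had 10 and 18 counts, against 98 and 170. The groups did not overlap in any of them, nor in RN7SL128P, with 2 and 6 counts in the P5CS IP libraries against 104 and 146 in the inputs. RN7SL752P had 6 and 2 counts in the P5CS IP libraries, against 30 and 50 in the inputs, and RN7SL381P had 2 and 0 counts, against 12 and 24. Both were called (log2 fold changes -3.16 and -3.89), at the edge of what the counts allow. The call of RN7SL752P was lost under some other settings. That of RN7SL381P was lost under most of them, among them the fit without a count filter (adjusted p = 0.122, edgeR). The copies that were not called averaged 7.75 to 17.8 counts per library. They were RN7SL832P (-1.02), RN7SL181P (-1.09), RN7SL521P (-0.44) and RN7SL689P (-0.37). RN7SL832P differs from the rest in having a gene model of 1756 nt, far longer than the RNA itself.

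The summed level of the 17 copies of 7SK was lower in the P5CS IP. They took 0.0271% and 0.0250% of the counts in the P5CS IP libraries, against 0.221% and 0.206% in the inputs, a log2 ratio of -3.30 (9.85-fold lower). All 7 copies that passed the filter were called lower, where 25.6% of all tested genes were. Their log2 fold changes lay between -3.43 and -2.81 with a median of -3.17. The other 10 copies had too few counts for the test, and in 2 of them both P5CS IP libraries lay above both inputs in CPM. RN7SKP271 had 4 and 4 counts in the P5CS IP libraries, against 0 and 4 in the inputs, and RN7SKP291 had 6 and 4 counts in the P5CS IP libraries, against 0 and 2 in the inputs. These rows are annotated as copies and not as the 7SK gene, and the counts of the 7SK gene were not analysed here. Near-identical rows may hold reads of the 7SK gene or of one another, so the 7 called rows may not be independent. The part of such reads in these values was not tested.

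RN7SKP203, the most abundant 7SK copy (chr2:76445170-76445410), had 154.1 and 136.7 CPM in the P5CS IP libraries, against 1613 and 1514 CPM in the inputs. Its log2 fold change was -3.43 (SE 0.0877, adjusted p = 3.07e-09, edgeR), and it held 62.6% and 59.6% of the 7SK counts in the P5CS IP libraries, against 66.96% and 66.6% in the inputs. RN7SKP71, the next copy by count, had 67.6 and 65.6 CPM in the P5CS IP libraries, against 568.6 and 533.9 CPM in the inputs, and its log2 fold change was -3.05 (SE 0.0829). The P5CS IP libraries were well below the inputs at both copies. RN7SKP255 had 17.5 and 17.9 CPM in the P5CS IP libraries, against 151.9 and 149.1 CPM in the inputs, and RN7SKP80 had 5.44 and 6.41 CPM, against 61.6 and 60.3 CPM. Lower still in level, RN7SKP230 had 26 and 48 counts in the P5CS IP libraries, against 332 and 418 in the inputs, and RN7SKP9 had 10 and 14 counts, against 104 and 138. The copies RN7SKP255 (-3.09, SE 0.0980), RN7SKP80 (-3.36, SE 0.141), RN7SKP230 (-3.19, SE 0.359) and RN7SKP9 (-3.17, SE 0.546) had similar values over a range of mean counts that ran down from 3310 to 66.5. The lowest of the called copies, RN7SKP79, had 4 and 4 counts in the P5CS IP libraries, against 22 and 42 in the inputs, a log2 fold change of -2.81 (SE 0.990). Its call was lost under most other settings, among them the fit without a count filter (adjusted p = 0.0546, edgeR).

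**Figure D2:**
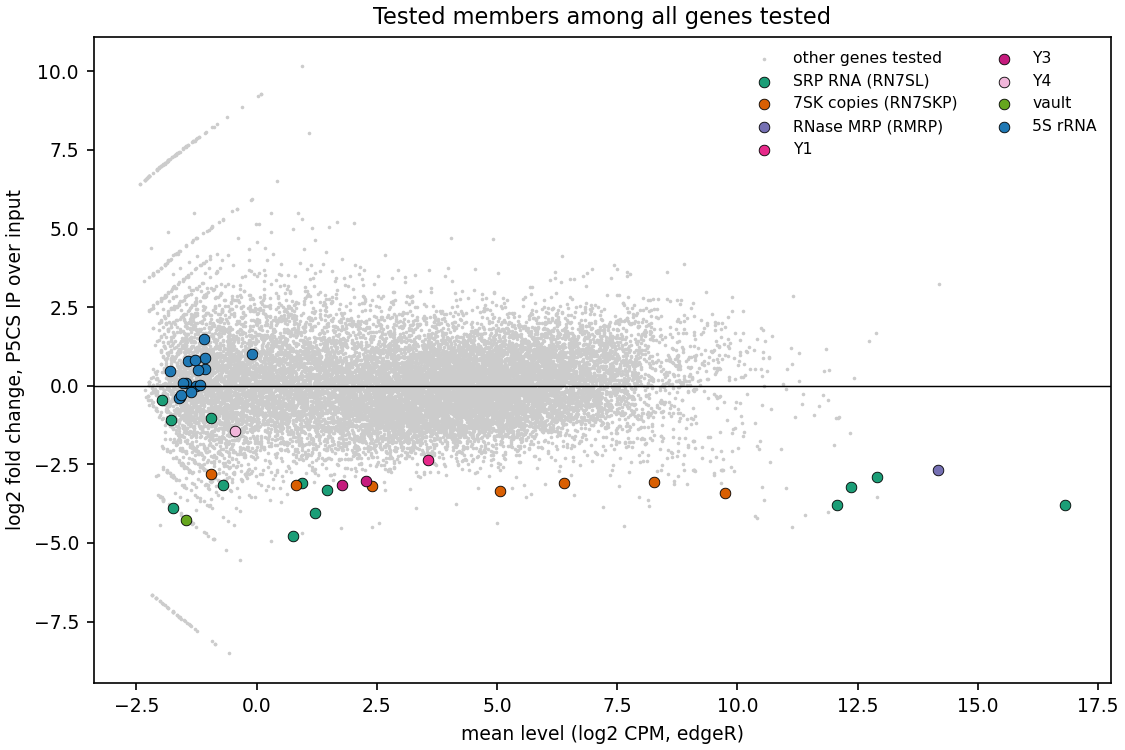
Log2 fold change of P5CS IP over input against mean level (log2 CPM, from edgeR) for all genes tested (grey) and for the 42 tested members, coloured by class. The 22 called members lie between -4.77 and -2.36 over most of the range of levels, while the 5S genes lie between -0.38 and 1.48.

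RMRP, the RNA of RNase MRP (chr9:35657750-35658019, with a gene model of 264 nt), was lower in the P5CS IP by a smaller factor than the particle RNA. It had 5891 and 4139 CPM in the P5CS IP libraries, against 34723 and 29198 CPM in the inputs (5015 ± 1239 against 31960 ± 3907, SD, n = 2 each). The log2 fold change was -2.67 (SE 0.143, adjusted p = 9.05e-08, edgeR), or 6.37-fold lower. RMRP ranked 2 by FPKM in all 4 libraries, directly below RN7SL1. Set against RN7SL counts, RMRP had 29.2 and 23.7 counts per 100 in the P5CS IP libraries, against 14.9 and 11.4 in the inputs. The balance between RMRP and RN7SL was thus shifted towards RMRP in both P5CS IP libraries, although both RNAs were lower there.

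The Y RNAs were far less abundant in these libraries, and 3 of the 4 rows were called lower, where 25.6% of all tested genes were. All Y rows together had 216 and 212 counts in the P5CS IP libraries, against 1214 and 1596 in the inputs. RNY1, the Y1 gene (chr7:148987136-148987248), had 3.82 and 3.85 CPM in the P5CS IP libraries, against 19.1 and 20.2 CPM in the inputs. Its log2 fold change was -2.36 (SE 0.190, adjusted p = 1.89e-06, edgeR), and the libraries within each group lay close together. RNY3, the Y3 gene, had 38 and 38 counts in the P5CS IP libraries, against 272 and 412 in the inputs, a log2 fold change of -3.02 (SE 0.320, adjusted p = 1.58e-05, edgeR). Its copy RNY3P1 had 22 and 26 counts in the P5CS IP libraries, against 178 and 304 in the inputs, a log2 fold change of -3.17 (SE 0.406). RNY4, the Y4 gene, had 10 and 16 counts in the P5CS IP libraries, against 46 and 32 in the inputs, and was not called (-1.45, SE 0.792, adjusted p = 0.156, edgeR). In this fit the direction was the same in all 4 Y rows, and RNY4 ran between -1.90 and 0.029 over the other settings. Both P5CS IP libraries lay below both inputs in each row, where the share of all genes was 34.6%. RNY3 and RNY3P1 may share reads, so these rows are not independent of each other.

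The vault and telomerase RNAs had too few counts for firm values. VTRNA1-3 had 2 and 0 counts in the P5CS IP libraries, against 31 and 14 in the inputs, and was called lower (-4.26, SE 1.42, adjusted p = 0.0279, edgeR), a call that 5 of the other settings ended. Most small counts in the table were even, as where each mate of a pair is counted, and on halved counts of 1 in the P5CS IP libraries and 23 in the inputs the ratio of input to P5CS IP was 21.0 (95% counting interval 3.41 to 865). VTRNA1-2 had 0 and 4 counts in the P5CS IP libraries, against 6 and 30 in the inputs, and did not pass the filter. TERC had 0 and 3 counts in the P5CS IP libraries, against 15 and 4 in the inputs, and did not pass either. The ratio of input to P5CS IP for TERC, on halved counts, was 4.57 with a counting interval of 0.973 to 42.9. The counts of 3 and 15 for TERC and of 31 for VTRNA1-3 are odd, so halving need not hold for either RNA. It widens both intervals. The interval of TERC therefore does not settle whether TERC differed. Fitted without the filter, TERC was not called (log2 fold change -2.43, adjusted p = 0.461, edgeR).

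**Figure D3:**
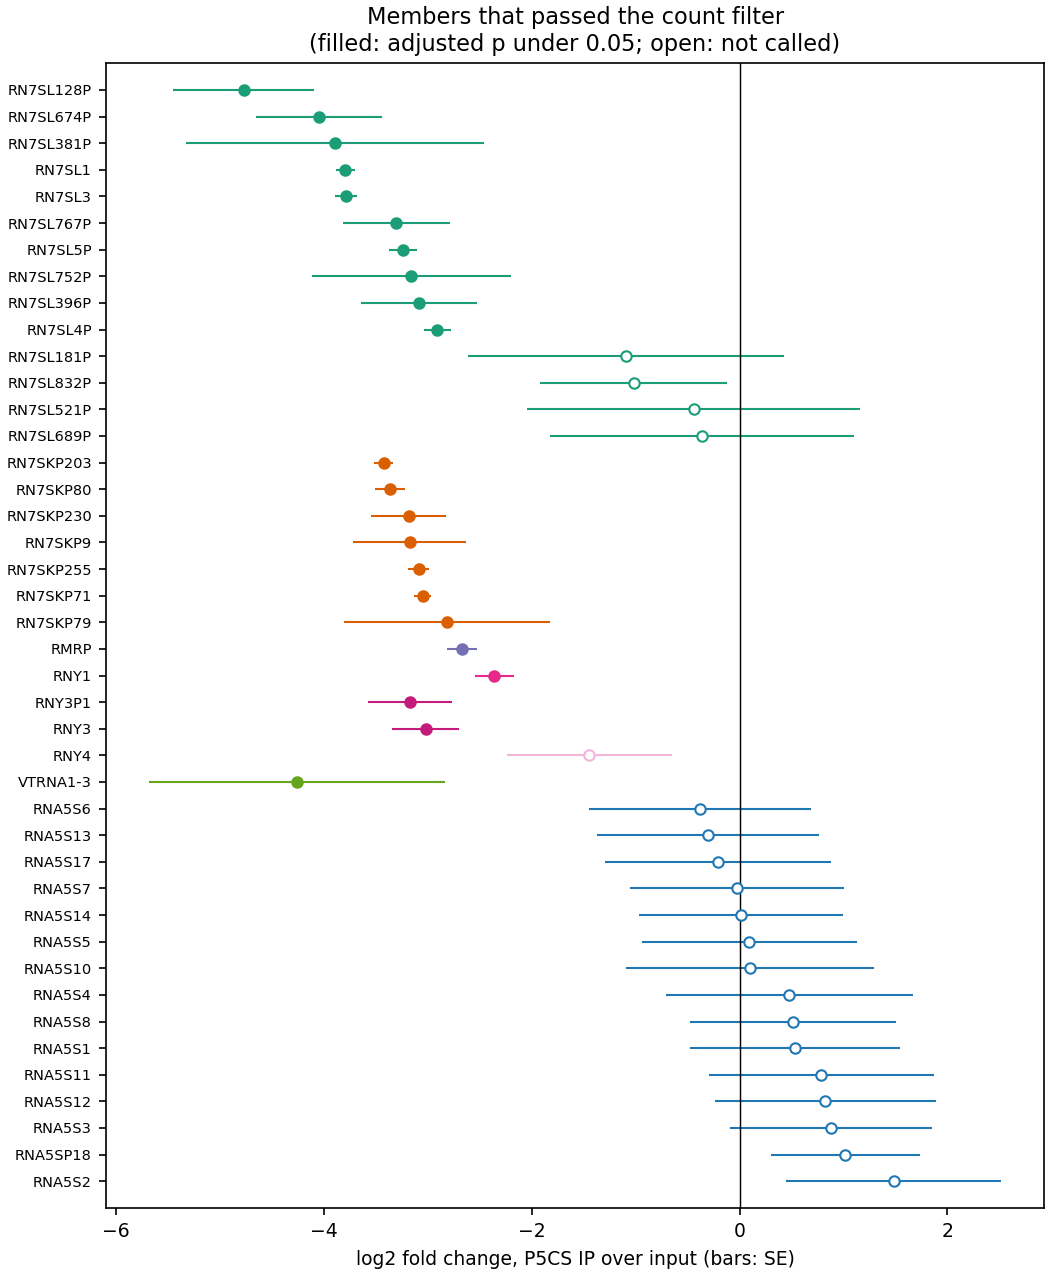
Log2 fold change of P5CS IP over input with its SE for the 42 members that passed the count filter, coloured by class and sorted within it. Filled points had an adjusted p under 0.05 (22 members, all below 0) and open points were not called. The open points include all 15 5S genes.

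The 5S rRNA genes formed the exception among the classes. The 17 genes RNA5S1 to RNA5S17 lie in a tandem array on chromosome 1 (228610266 to 228646158, hg38), and with 4 pseudogene copies they make up the class. The summed level of the class was 7.16 and 9.06 CPM in the P5CS IP libraries, against 3.22 and 8.16 CPM in the inputs, a log2 ratio of 0.51 with pairings of libraries that ran between -0.19 and 1.49. The groups overlapped, because input 2 lay above P5CS IP 1. Without input 1 the log2 ratio was -0.01, so the sign of the class value rested on that library. These levels are minute beside the abundance of 5S rRNA in cells, and depth limits every value in the class.

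Of the 17 array genes, 14 passed the filter and 0 were called (edgeR), with 0 also at an unadjusted p under 0.05. DESeq2 called 0 of them too. The lowest adjusted p was 0.264 (edgeR). With the length trend removed, RNA5S2 (2.86, adjusted p = 0.0456) and RNA5SP18 (2.41, adjusted p = 0.0192) were called higher (edgeR), so the absence of calls in the class depended on that setting. Their log2 fold changes ran between -0.38 and 1.48 with SEs of 0.974 to 1.19, and 10 of 14 were positive (median 0.29). SEs of this size leave room for changes of several-fold in either direction, so these values do not show that 5S levels were alike in P5CS IP and input. Input 2 lay above input 1 in 16 of the 17 genes, and its summed level over the array was 3.03 times that of input 1, whereas P5CS IP 2 stood at 1.16 times P5CS IP 1. The spread between the inputs was thus wider than the difference between the groups. Genes of the array are near-identical and may share reads, so these counts of genes may not be counts of independent rows.

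RNA5S2 had the highest log2 fold change of the array, with 22 and 23 counts in the P5CS IP libraries against 3 and 15 in the inputs (1.48, SE 1.03). RNA5S3 had 24 and 16 counts in the P5CS IP libraries, against 6 and 18 in the inputs (0.88, SE 0.974). RNA5S9, which did not pass the filter, had 6 and 6 counts in the P5CS IP libraries, against 3 and 3 in the inputs. In CPM both P5CS IP libraries lay above both inputs in these genes. RNA5S12 stood at 0.83, RNA5S11 at 0.79, RNA5S1 at 0.53, RNA5S8 at 0.51 and RNA5S4 at 0.48 on the log2 scale, and in each of them input 2 lay between the P5CS IP libraries or above them. RNA5S10 (0.10), RNA5S5 (0.09), RNA5S14 (0.01) and RNA5S7 (-0.02) lay near 0. RNA5S17 (-0.21), RNA5S13 (-0.30) and RNA5S6 (-0.38) were the lowest, and RNA5S6 had 6 and 11 counts in the P5CS IP libraries, against 9 and 16 in the inputs. RNA5S15 had 8 and 5 counts in the P5CS IP libraries, against 3 and 17 in the inputs, RNA5S16 had 9 and 3 counts, against 3 and 18, and neither passed the filter.

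**Figure D4:**
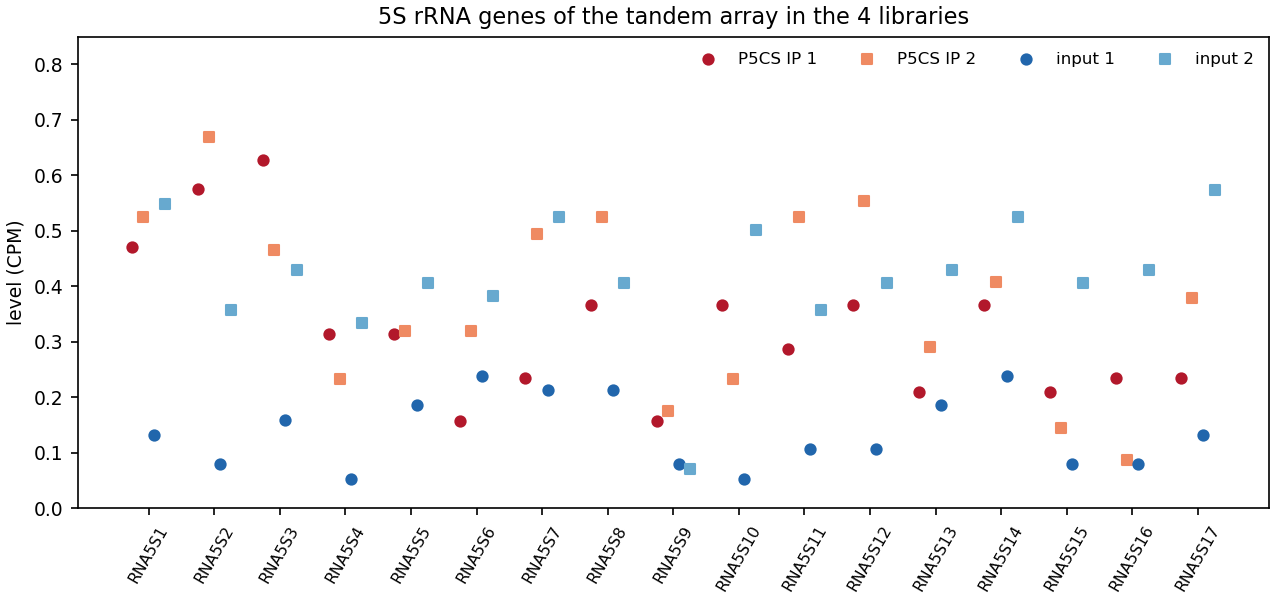
Level in CPM of each of the 17 genes of the 5S array in the order of their numbers, with 1 point per library (P5CS IP in red and orange, input in blue). Input 1 is low and input 2 high in 16 of the 17 genes, and the P5CS IP points mostly lie between or beside them.

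Of the 4 5S copies, RNA5SP18 (chr1:228647912-228648032) lies just past the array and had 49 and 37 counts in the P5CS IP libraries, against 13 and 34 in the inputs. Its log2 fold change was 1.02 (SE 0.715, adjusted p = 0.266, edgeR). The transcribed pseudogene DUSP5P1, whose span holds RNA5S17 and RNA5SP18, averaged 3.67 CPM in the P5CS IP and 1.34 CPM in the input and was called higher (1.45, adjusted p = 0.0251, edgeR). The protein-coding gene RHOU, whose span also holds both rows, was not called (-0.09, adjusted p = 0.906, edgeR), and RNA5S17 itself stood at -0.21. The part of reads from DUSP5P1 or RHOU transcripts in the values of these 5S rows was not tested. RNA5SP284 had 9 and 4 counts in the P5CS IP libraries and 0 in both inputs, and RNA5SP203 had 2 and 0 counts, against 20 and 10. Neither passed the filter, and neither was called without it (adjusted p = 0.172 and 0.171, edgeR).

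RNA5SP162 (chr4:56331177-56331217, with a gene model of 44 nt) was called higher only where no count filter was used, and 1 library held nearly all its counts. It had 4 and 52 counts in the P5CS IP libraries, against 0 and 1 in the inputs, and did not pass the filter. Fitted without the filter it was called higher (log2 fold change 5.69, adjusted p = 0.0165, edgeR), where 20.3% of all genes were called higher. Without P5CS IP 2 the log2 fold change was 2.84 and the call was lost (adjusted p = 0.620, edgeR). On halved counts of 28 in the P5CS IP libraries and 1 in the inputs the ratio was 30.7 (95% counting interval 5.07 to 1254). This interval covers counting error only and leaves out the gap between 4 and 52 counts in the P5CS IP libraries. The input count of 1 is odd, so halving need not hold here. In the authors' deposited table RNA5SP162 was also the only member marked Enriched, a mark given there to 19.0% of genes.

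The balance of 5S rRNA and particle RNA differed between the groups. Scaled to 1000000 RN7SL counts, there were 354.6 and 518.8 RNA5S counts in the P5CS IP libraries, against 13.8 and 31.8 in the inputs. Both P5CS IP libraries lay far above both inputs in this ratio, and the groups did not overlap. Without input 1 the 5S class stood at -0.01 and the RN7SL class at -3.77 on the log2 scale, so against input 2 alone the shift in the ratio was that of RN7SL.

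Among the 29 members that did not pass the filter were 11 RN7SL copies, 10 7SK copies, 6 5S rows, VTRNA1-2 and TERC. RN7SKP48 had the most counts of them, with 2 and 8 in the P5CS IP libraries against 8 and 42 in the inputs. The 3 RN7SL and 3 RN7SK copies with 0 counts in both P5CS IP libraries had 12 to 20 counts in the inputs. RN7SL648P, with 4 and 16 counts in the inputs, had the most of them and was not called in a fit without the filter (adjusted p = 0.126, edgeR). RN7SL388P (12 and 0 counts) and RN7SL836P (10 and 2 counts) were seen in the P5CS IP libraries and had 0 counts in both inputs. Fitted without a filter, 19 of all 71 members were called lower and 1 higher, where 20.6% of all genes were called lower.

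Copies that lie inside other genes could be set beside the gene around them. Of the 71 members, 38 lie within the span of another annotated gene. The 11 members called lower that lie within a tested protein-coding gene gave pairs of values from the same locus. In 6 of these pairs the surrounding gene was called higher in the P5CS IP, in 2 it was called lower and in 3 it was not called (edgeR). Of all tested genes, 25.4% were called higher and 25.6% lower. Higher calls were more frequent in longer gene models. Among tested genes that are not members, 1214 of 5499 with models of 2001 to 4000 nt were called higher. At 4001 to 8000 nt it was 1854 of 5349, and from 8001 nt upwards 867 of 1914. The part of gene length in these pairs was not tested. The sources used here give no strand setting for the counting, so reads of a copy and of the intron around it cannot be told apart with certainty.

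HECTD4, which holds RN7SKP71 (-3.05), was higher in the P5CS IP (1.60), with 193.4 CPM in the P5CS IP and 64.0 CPM in the input on average. ANKRD28, which holds RN7SL4P (-2.91), stood at 1.12, MAN2A1, which holds RN7SKP230 (-3.19), at 1.03, and PTPRD, which holds RN7SL5P (-3.24), at 0.81. In each of these loci the copy and the gene around it differed in sign. GSE1 around RN7SL381P (0.56) and PLXND1 around RN7SL752P (0.55) were likewise called higher. The exceptions were RPS29, a ribosomal protein gene whose span holds RN7SL1 and which was itself lower (-2.72), and UBAC2 around RN7SKP9 (-0.78). GREB1, E2F3 and SERHL2 were not called.

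**Figure D5:**
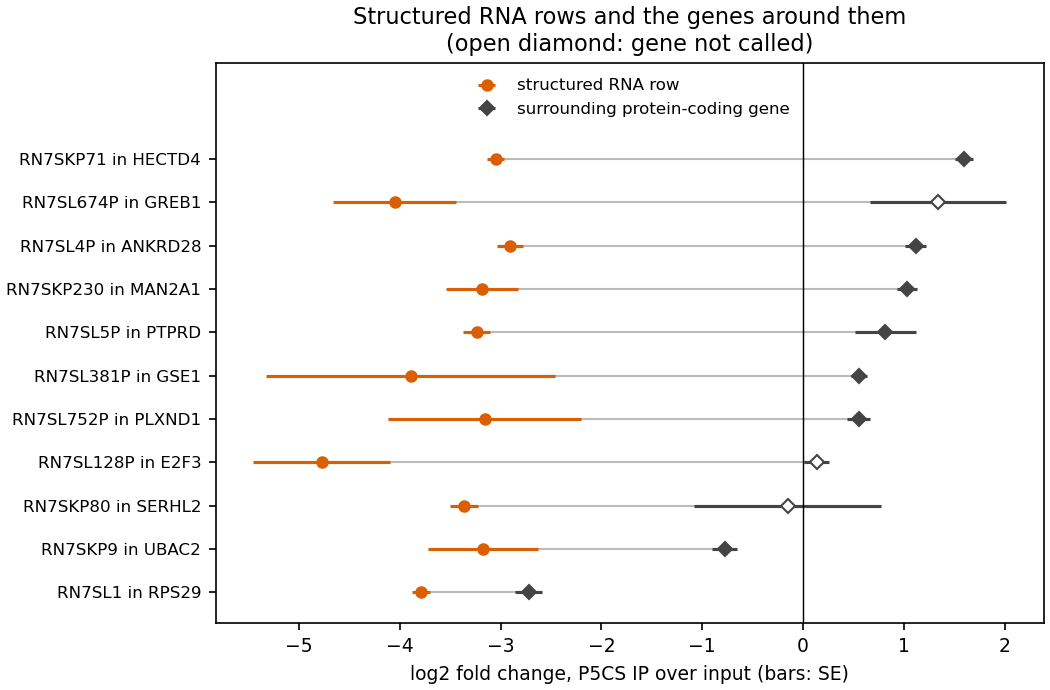
Log2 fold change of P5CS IP over input with its SE for the 11 members called lower that lie within a tested protein-coding gene (orange) and for that gene (grey diamonds, open where not called). All members lie left of 0, while the surrounding genes lie between -2.72 (RPS29) and 1.60 (HECTD4).

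Outside these classes, genes with models of 101 to 200 nt were often called lower in the P5CS IP, where the share of all tested genes was 25.6%. Small nuclear RNA genes were lower by about as much as the tested members, whose median log2 fold change was -2.52. Among tested genes that are not members, those with models of 201 to 350 nt had a median log2 fold change of -0.82. Of these 134 genes, 29 (21.6%) were called lower, which is below the share of all tested genes. Of the 21 tested members in that range of length, 18 were called lower and their median was -3.17. Among models of 101 to 200 nt the order was the other way round, with 81 of 159 other genes (50.9%) and 3 of 18 members called lower, since 15 of those members were 5S genes. By gene type, 26 of 30 tested small nuclear RNA genes were called lower (median -2.59) and 25 of 77 small nucleolar RNA genes (median -1.37). With a smooth trend of level on gene length removed in each library, RN7SL1 stood at -2.76, RN7SKP203 at -2.44, RMRP at -1.58 and RNY1 at -0.94, and these were still called. Of the 22 called members, 18 kept the call in that fit and 4 (RN7SKP79, RN7SL752P, RN7SL381P and VTRNA1-3) lost it. RNY4 stood at 0.01 in that fit. The part of gene length in the remaining differences was not tested.

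The mRNAs of the proteins that bind or transcribe these RNAs were read from the same fit. Of 68 listed genes 67 were tested, of which 33 were called lower in the P5CS IP, 12 higher and 22 not called, with a median log2 fold change of -0.54. Over all genes tested, 25.6% were called lower and 25.4% higher, and the counts of the sets below stand beside those shares. All 8 genes of the signal recognition particle and its receptor were called lower, with a median of -1.20. The lowest values there were those of SRP14 (-2.24, SE 0.111), which binds the Alu end of the RNA, and SRP19 (-1.94, SE 0.721). The weakest were those of SRP68 (-0.59) and SRP54 (-0.55), the subunit that binds the signal peptide. SRP19 and SRP54 were called close to the threshold (adjusted p = 0.0436 and 0.0432, edgeR). SRP19 had only 0.209 and 0.641 CPM in the P5CS IP libraries, against 1.78 and 1.48 CPM in the inputs. Both genes of the Y RNA proteins were called lower, SSB (the La protein) at -1.15 and RO60 at -0.56. These values are those of the mRNAs and not of the proteins.

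The mRNAs of the other particles were divided. Among the 10 tested RNase P and MRP subunit genes, 5 were called lower, led by RPP40 (-2.12) and POP5 (-1.92), and RPP25 was called higher (1.31). Of 7 genes of the 7SK particle and P-TEFb, CCNT2 (-1.15) and CCNT1 (-0.65), which encode cyclin T, were called lower. MEPCE (1.54), the enzyme that caps 7SK, and HEXIM1 (0.89), the inhibitor held by it, were called higher. Of 5 genes of the 5S particle, 4 were called lower, with RPL11 (-2.40) and GTF3A (-1.67), the 5S transcription factor TFIIIA, at the low end and RPL5 (-1.66) and RPF2 (-0.77) above them. Among 7 telomerase genes NHP2 (-1.91) and NOP10 (-1.56) were called lower and TERT (1.70), the catalytic subunit, higher. Of 3 vault genes TEP1 was called higher (1.11) and the others were not called. Among 25 genes of RNA polymerase III and its factors, 10 were called lower and 7 higher, with POLR3K (-2.09) and SNAPC5 (-2.06) lowest and BRF1 (1.31) and BDP1 (1.21) highest.

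All values are shares of a library, so a lower share of these RNAs in the P5CS IP and a larger amount of all other RNA there cannot be told apart. With libraries scaled to total counts, the median over all tested genes moved to 0.25, and with it the log2 ratio of the RN7SL class stood at -3.43 and that of the 7SK copies at -3.03. The series design names an IgG antibody and no input, whereas the titles and the column names give input. If the libraries labelled input were IgG recoveries, each ratio would set 2 recoveries against each other, and the files do not settle this.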

How the data were processed

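RIP-seq libraries of NCI-H1299 cells (2 P5CS IP, 2 input, per the sample titles) came as 1 table of 21373 rows, of which 1 repeated a gene and was dropped. LACE-seq and IgG appear in the series design instead, and the sample titles were followed. The authors deposited whole-number counts per gene and library, and these were used without change. FPKM values, also deposited by the authors, are counts per length and library total, and gene model lengths were recovered from them. The authors' comparison columns hold, per the file headers, a log2 fold change, a deposited p-value and an adjusted p-value, of which only what is credited to the authors was used. The deposited normalised mean (a signal) and the deposited test score were not used. Reads were handled with fastp 0.23.2, STAR 2.7.10a, featureCounts and DESeq2 on hg38, per the submitters' processing notes, with settings, annotation, strand and the handling of reads with several positions not given in the sources used here. All count columns, and no label, hold the word Cyto.

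The test was edgeR 4.0.16 in R 4.3.3 on the counts (filterByExpr, TMM, glmQLFit, glmQLFTest, two-sided, Benjamini-Hochberg over 17304 genes, call under 0.05) after tests on simulated data. The filter left out 4068 genes. Each SE was derived from that test, as the absolute log2 fold change over the square root of the F value. TMM factors were 1.10 and 1.09 for P5CS IP and 0.919 and 0.904 for input. The common coefficient of variation between replicate libraries was 0.201 in the edgeR fit, and replicates differed beyond sampling noise (chi-square per degree of freedom 21.8 for P5CS IP, 20.5 for input). Intervals and floors cover counting error only. Coordinates and gene types came from a RefSeq table (GRCh38.p14, the hg38 assembly), which matched all 71 members by identifier. Deviations from the group means were not correlated between libraries of the same replicate number (correlation 0.000153). With 2 libraries per group both pairs give the same value, so it cannot show whether libraries of the same number shared a culture. Alternatives were DESeq2 1.42.0, other scalings, no filter, halved counts, a length trend removed, a replicate block and leaving out each library.

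Members and lists were chosen with earlier results of these data known. Every reference gene was named, with the 12 copies of highest mean count in full, other tested copies by range, the 5 untested members of highest count, and the 2 highest and lowest called genes of each partner set. Called copies, members at 0 in a group, and genes around members were named after their values were seen.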

Additional observations from a re-analysis of the deposited data

How the results depend on the processing

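Of the 22 members called lower, 18 were called lower under all 12 other fits and 4 (RN7SKP79, VTRNA1-3, RN7SL752P and RN7SL381P) lost the call in some, and none of the 22 changed sign. The number called lower was 18 to 22 over those fits, with 20 under the replicate block, which also changed the calls of RN7SKP79 and RN7SL381P. The number called higher, 0 in the edgeR fit reported, was 1 without a count filter (RNA5SP162), 2 with the length trend removed and 1 with the replicate block and the length trend removed (RNA5SP18). On the log2 scale, the RN7SL class moved to -3.43 as shares of total counts, -3.19 without its most abundant row and -3.03 over pseudogene rows only. The 7SK class moved to -3.03 as shares of total counts, -3.42 as shares of the counts of other genes and -3.08 without its most abundant row, and Y1 to -2.09 and -2.48 under those other shares. TERC moved to -2.25 and -2.63 under those shares and ran between -3.19 and -1.13 with 1 library left out, and the 5S class ran between -0.01 and 1.33. No member that was called changed sign, while some uncalled ones with few counts did. With the length trend removed, RNA5S6 stood at 0.97, RNA5S7 at 1.32, RNA5S13 at 1.06, RNA5S17 at 1.15, RN7SL689P at 0.69, RN7SL521P at 0.62 and RNY4 at 0.013. With the replicate block added to that fit the values were 0.96 for RNA5S6, 1.40 for RNA5S7, 1.16 for RNA5S13, 1.42 for RNA5S17, 1.79 for RN7SL689P, 1.10 for RN7SL521P and 0.029 for RNY4. With the replicate block alone RNA5S7 stood at 0.022, RNA5S17 at 0.052, RN7SL689P at 0.77 and RN7SL521P at 0.075, and with total counts RNA5S7 stood at 0.24 and RNA5S17 at 0.059. Leaving out 1 library gave ranges of -0.14 to 1.88 for RNA5S1, -0.28 to 2.29 for RNA5S4, -0.35 to 0.76 for RNA5S5, -0.97 to 0.041 for RNA5S6, -0.64 to 0.76 for RNA5S7, -0.73 to 2.42 for RNA5S10, -0.78 to 0.42 for RNA5S13, -0.44 to 0.68 for RNA5S14 and -0.90 to 1.18 for RNA5S17. The ranges were -1.37 to 6.24 for RN7SL689P, -2.89 to 5.75 for RN7SL521P and -6.59 to 1.40 for RN7SL181P. The cause of these moves was not tested. RN7SL381P, RN7SL181P, RN7SL521P and the 5S rows rested on few counts, and 2 libraries a group left 2 residual degrees of freedom. The fits of RNA5SP162 without single libraries were chosen after seeing the data, and with libraries other than P5CS IP 2 left out its log2 fold change was 4.90 to 7.89 and the call held.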

Other observations

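The table also held collective rows that carry a family name and no gene of their own. The row Y_RNA had 159 and 168 counts in the P5CS IP libraries, against 851 and 1158 in the inputs, a log2 fold change of -2.48 (SE 0.193, adjusted p = 1.51e-06, edgeR). The row 7SK had 4 and 8 counts in the P5CS IP libraries, against 72 and 98 in the inputs, a log2 fold change of -3.64 (SE 0.708, adjusted p = 0.00131, edgeR). The row Metazoa_SRP had 11 and 48 counts in the P5CS IP libraries, against 34 and 90 in the inputs, and was not called (-0.87, adjusted p = 0.393, edgeR). The row 5S_rRNA had 7 and 2 counts in the P5CS IP libraries, against 6 and 3 in the inputs, and did not pass the filter. These rows were no members and entered none of the class sums.

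Counts of 1 to 30 were mostly even over all genes, at 86.4% and 86.0% in the P5CS IP libraries and 85.8% and 86.3% in the inputs. Among the 5S rows the even share was 75% and 55.6% in the P5CS IP libraries and 42.1% and 47.4% in the inputs. A 5S row thus more often held an odd count, and what sets these rows apart was not tested.

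In the authors' deposited table, 20 of the 71 members had a negative log2 fold change with an adjusted p under 0.05 and 1 had a positive one. The share of all genes with such values was not taken from those columns, so these counts do not set the members apart from other genes.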
